A study of Mus musculus with 6 samples.

Results

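The genes described here are 10 tubulin isotypes, the alpha-tubulins Tuba1a, Tuba1b and Tuba4a and the beta-tubulins Tubb2a, Tubb2b, Tubb3, Tubb4a, Tubb4b, Tubb5 and Tubb6. They were chosen by gene symbol among the 55357 genes counted, and all 10 passed the filter on low counts that left 21876 genes to test. Poly(A) RNA was sequenced from 6 libraries of wild-type mouse primary neuronal cultures, set up from the cortex and hippocampus of C57BL/6N embryos. Cultures were transduced at DIV4 (day in vitro 4) with lentivirus and collected at DIV14. The 3 shCtrl libraries carried a control or scrambled shRNA and the 3 shPla2g4e libraries carried 1 shRNA (sh2) against Pla2g4e, a phospholipase A2 family enzyme that makes N-acyl phosphatidylethanolamines, and cultures of both groups received the same amount of virus. The comparison asked which neuronal transcripts differed once Pla2g4e was lowered while the neurons matured. Both arms rest on a single shRNA sequence each, and nothing in the labels says that the libraries of a group came from separate cultures, so that p-values measure the spread between these libraries.

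Alpha- and beta-tubulin form the dimer from which microtubules are built, and neurons need large amounts of both to extend and maintain axons and dendrites. Mammals encode each subunit in several genes whose products differ mostly in the acidic tail at the end of the protein. Tubb3 is largely neuronal and widely used as a neuronal marker, Tuba1a, Tubb2a and Tubb2b are abundant in developing neurons, Tubb5 is broadly expressed and Tubb6 is made mostly outside neurons. Cells also adjust tubulin messages to the pool of free dimer, because the factor TTC5 recognises the first residues of a tubulin chain as it leaves the ribosome and brings about decay of the message being translated.

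The start of the coding sequence is shown because it is the stretch that this autoregulation reads, and because it shows how alike the members are. The first 30 coding bases of 9 members are given 5′ to 3′ from GENCODE vM21 (GRCm38), with the first 4 codons in capitals. Tubb6 matched the annotation too, and its letters are not shown.
Tubb3: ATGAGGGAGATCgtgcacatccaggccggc
Tubb4b: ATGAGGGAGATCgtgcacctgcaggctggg
Tubb5: ATGAGGGAAATCgtgcacatccaggccgga
Tubb2a: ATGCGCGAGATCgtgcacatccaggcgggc
Tubb2b: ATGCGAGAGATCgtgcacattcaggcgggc
Tubb4a: ATGCGGGAAATCgtgcacctgcaagccggt
Tuba1a: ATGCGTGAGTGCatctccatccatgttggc
Tuba1b: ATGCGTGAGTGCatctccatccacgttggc
Tuba4a: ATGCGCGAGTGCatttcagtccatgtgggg
The Tubb3 stretch lies at chr8:123411606-123411635 on the plus strand and the Tubb5 stretch at chr17:35838024-35838053 on the minus strand. Those of Tubb2a and Tubb2b lie at chr13:34077900-34077929 and chr13:34130204-34130233, both on the minus strand. The 7 beta members used 6 different spellings of their first 12 bases, all of which translate to the same 4 residues. Among 15736 tested coding genes, these 7 were the ones with that start, 0.0445% of the genes. The 3 alpha members shared another start of 4 residues with Tuba1c and Tuba8, 5 genes or 0.0318% in all. The end of the coding sequence, which encodes the tail, is shown for 3 beta members with the stop codon in capitals.
Tubb3: gaggaatcggaagcccaggggcccaagTGA
Tubb2a: gaggaggaggagggtgaagatgaggctTGA
Tubb2b: gaggaggaagagggcgaggatgaggctTGA
The Tubb2a and Tubb2b tails were close to each other and the Tubb3 tail was spelled differently.

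Over whole coding sequences, the beta members were 80.2% to 96.5% identical in 21 pairs and the alpha members 84.7% to 98.3% in 3 pairs, whereas alpha against beta gave 52.3% to 55.1%. Tuba1a and Tuba1b, which lie 15.27 kb apart on chromosome 15, were 98.3% identical, with 281 bases in a row the same. Tubb2a and Tubb2b, 48.74 kb apart on chromosome 13, were 96.5% identical, with an identical run of 551 bases. In the coordinates of the counts (GRCm39), Tubb3 spans chr8:124138163-124148754 and Tubb5 spans chr17:36144813-36149198.

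Tubulin messages were lower in the shPla2g4e libraries for 9 of the 10 members and none was higher. Tubb3 was left at 31.2% of its shCtrl level, Tubb5 at 46.5%, Tuba1b at 54.0% and Tuba1a at 55.9%. The other 5 that passed were left at 60.4% to 74.0%, and Tubb6 stood at 95.0%. Values are CPM, the reads of a gene scaled to the size of its library with TMM factors, and a gene passed at an adjusted p below 0.01 in edgeR's quasi-likelihood test over all 21876 genes. Of all genes tested, 4% passed as lower and 2.48% as higher. Many members are abundant, and in the 690 genes whose log2 CPM averaged 8 or more, 14.9% passed as lower. The median log2 fold change was −0.67 over the members, 0.03 over all genes and −0.10 over those 690 genes. At an unadjusted p below 0.05 the number of members higher was also 0. With limma after voom, which called 4.23% of all genes lower and 2.3% higher, 9 members were lower and 0 higher. In bulk RNA, fewer cells of a type and less RNA per cell cannot be told apart. Pla2g4e itself read 38.0, 35.1 and 35.4 CPM in shCtrl and 21.8, 14.1 and 18.7 CPM in shPla2g4e, a log2 fold change of −0.99 (SE 0.13, edgeR adjusted p = 1.24e-04), so the labels hold for the targeted gene.

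**Figure D1:**
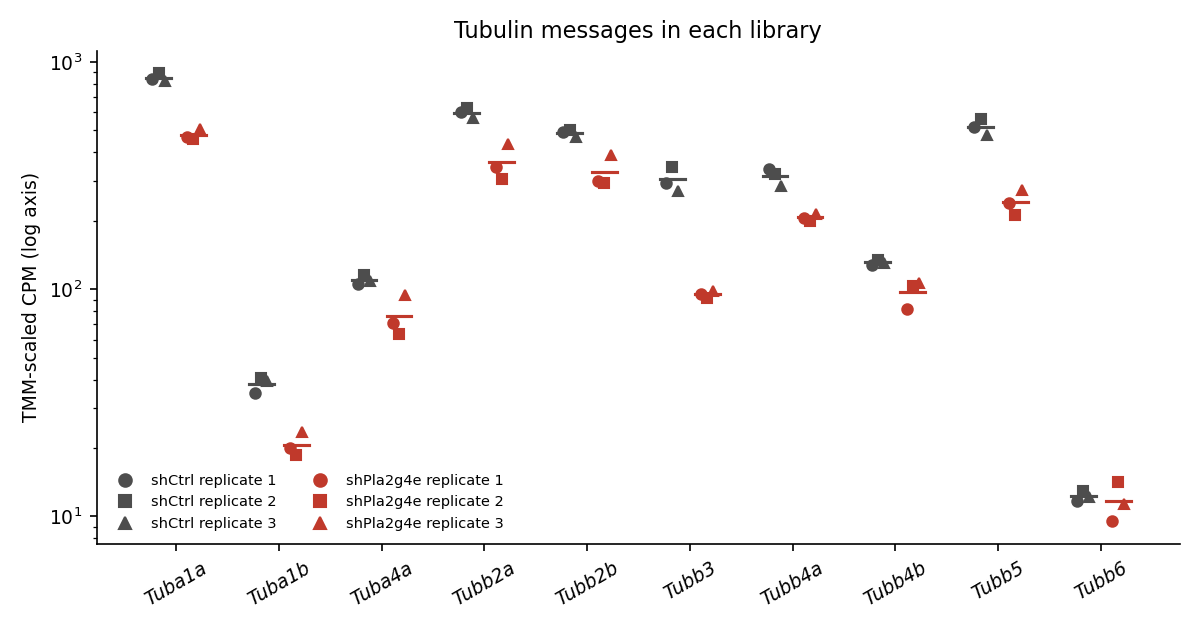
TMM-scaled CPM (log axis) of each tubulin gene in the 3 shCtrl (grey) and 3 shPla2g4e (red) libraries, with marker shape giving the replicate number and bars the group means. For 9 genes all red points lie under all grey points, and for Tubb6 they mix.

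Of the beta-tubulins, Tubb3 had the largest estimate. It read 295, 345 and 271.5 CPM in shCtrl and 95.4, 90.9 and 98.4 CPM in shPla2g4e. The 3 knockdown libraries lay close together, well under the lowest control. Group means were 304 ± 37.6 CPM and 94.9 ± 3.77 CPM (n = 3, SD). The estimated difference on the log2 scale was −1.68 (SE 0.09, edgeR adjusted p = 3.68e-08), and by p it stood at rank 4 of all genes tested. Tubb5, the general beta isotype, read 518, 563 and 476 CPM in shCtrl and 239, 211.5 and 274 CPM in shPla2g4e. Its groups did not overlap either, and its log2 fold change was −1.10 (SE 0.10, edgeR adjusted p = 3.17e-06).

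The neighbouring genes Tubb2a and Tubb2b were left at 60.4% and 67.4%, with some spread among the knockdown libraries. Tubb2a read 600.3, 629 and 566.5 CPM in shCtrl against 344, 307 and 435 CPM in shPla2g4e. Tubb2b read 489, 503 and 466 CPM against 298, 295 and 391 CPM. In both genes replicate 3 was the highest of the shPla2g4e libraries and still lay under every control. The log2 fold changes were −0.73 (SE 0.11, edgeR adjusted p = 3.07e-04) and −0.57 (SE 0.10, edgeR adjusted p = 0.00137). The Tubb2b call was lost when shCtrl replicate 2 (edgeR adjusted p = 0.0146) or shPla2g4e replicate 1 (0.0124) was left out.

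Tubb4a, an isotype of neurons and oligodendrocytes, read 339, 319.7 and 284 CPM in shCtrl and 206, 199 and 215 CPM in shPla2g4e, with no overlap. Its log2 fold change was −0.60 (SE 0.08, edgeR adjusted p = 1.73e-04). Tubb4b, a widely expressed isotype also found in cilia, read 128, 135 and 130.5 CPM against 82.0, 103 and 106 CPM. The groups were apart here as well, with replicate 1 the lowest of the knockdown libraries, and the log2 fold change was −0.44 (SE 0.09, edgeR adjusted p = 0.00583). The Tubb4b call rested on the full set of libraries, since it passed in 2 of the 6 fits that left 1 library out. It was lost without any 1 of the shCtrl libraries and without shPla2g4e replicate 1, with an edgeR adjusted p of up to 0.0398.

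Tubb6 was the member that did not pass. It read 11.7, 12.9 and 12.2 CPM in shCtrl and 9.495, 14.1 and 11.4 CPM in shPla2g4e, from 199 to 305 reads per library. The knockdown libraries spanned the whole control range, and the log2 fold change was −0.07 (SE 0.15, edgeR adjusted p = 0.825).

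The alpha-tubulins were led by Tuba1a, the main alpha isotype of young neurons. It read 843, 892 and 820.4 CPM in shCtrl and 466, 456 and 506 CPM in shPla2g4e. All knockdown libraries lay far under the controls, and the group means were 852 ± 36.7 CPM and 476 ± 26.4 CPM (n = 3, SD). On the log2 scale it differed by −0.84 (SE 0.08, edgeR adjusted p = 5.6e-06). Tuba1b, its close copy, read 35.0, 40.6 and 39.25 CPM against 19.99, 18.6 and 23.4 CPM. It too had no overlap, at a log2 fold change of −0.89 (SE 0.11, edgeR adjusted p = 5.47e-05).

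Tuba4a, the alpha isotype whose gene does not encode a final tyrosine, read 105, 115.5 and 108 CPM in shCtrl and 71.2, 63.8 and 94.5 CPM in shPla2g4e. Replicate 3 lay nearer the controls than the other knockdown libraries, without reaching them. The log2 fold change was −0.52 (SE 0.11, edgeR adjusted p = 0.00645). This call was the least steady of the 9, as it passed in 1 of the 6 fits that left a library out, the exception being the fit without shPla2g4e replicate 3, and its adjusted p reached 0.0444 without shCtrl replicate 2.

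Counted over libraries, the shPla2g4e values lay under all shCtrl values for 9 of the 10 members. Of all genes tested, 14.6% were apart in that direction, and 23.8% of those whose log2 CPM averaged 3 or more. Within the groups, shCtrl replicate 2 was the highest control for 9 of 10 genes and shPla2g4e replicate 3 was the highest knockdown library for 9 of 10. The exceptions were Tubb4a in shCtrl and Tubb6 in shPla2g4e.

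**Figure D2:**
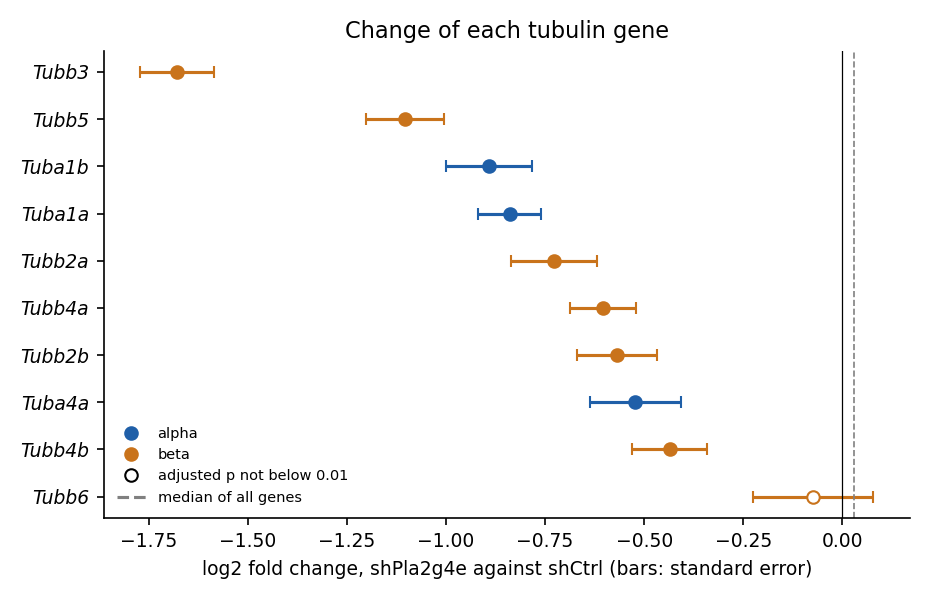
Log2 fold change of each tubulin gene, shPla2g4e against shCtrl, with standard errors as bars, alpha members in blue, beta members in orange and an open point where the adjusted p was not below 0.01. Tubb3 stands at −1.68 and Tubb6 at −0.07, with the dashed line at the median of all genes (0.03).

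Message levels were also summed over the members of each subunit. The alpha sum went from 999.7 ± 42.7 to 573 ± 44.9 CPM, 57.3% of the control. The beta sum went from 2366 ± 151 to 1341 ± 166 CPM, 56.7% of the control (SD, n = 3 each). All knockdown sums lay under all control sums, and the exact two-sided permutation p was 0.1 for each sum, the smallest that 3 against 3 libraries allow. Paired by replicate number, the exact sign-flip p was 0.25 for each, the smallest that 3 pairs allow. The beta to alpha ratio in reads per kilobase of exon read 2.17, 2.15 and 2.06 in shCtrl and 2.09, 2.06 and 2.28 in shPla2g4e. These values overlapped (2.13 ± 0.0621 against 2.14 ± 0.123, exact permutation p = 0.9), and the sign of the difference turned without shCtrl replicate 3 or shPla2g4e replicate 3. Together the 10 genes took 0.328% of all counted reads in shCtrl and 0.196% in shPla2g4e.

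Per kilobase of exon, which lets genes be set against each other, Tuba1a had the highest level in shCtrl (472 ± 20.4 CPM per kb), followed by Tubb2a (372 ± 19.5) and Tubb2b (212 ± 8.17). Tubb3 (163 ± 20.1), Tubb5 (156 ± 13.1) and Tubb4a (141 ± 12.5) came next, and neighbours among these 3 overlapped between libraries. Tubb4b (62.8), Tuba4a (29.6), Tuba1b (20.4) and Tubb6 (5.03 CPM per kb) followed without overlap. In shPla2g4e, Tuba1a (264 ± 14.6) and Tubb2a (225 ± 40.9) overlapped. There Tubb3 (50.8 ± 2.02 CPM per kb) stood sixth, after Tubb4a (92.8 ± 3.56) and Tubb5 (72.6 ± 9.45), and overlapped with Tubb4b (46.5 ± 6.27). These orders hold for the full exon length. Per kilobase of stretches that occur once they turn in several places, among them Tubb5 above Tubb3 in shCtrl, Tubb4b above Tubb3 and Tubb4a in both groups and above Tubb5 in shPla2g4e, and Tuba1b above Tuba4a in both groups.

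The make-up of the beta pool was followed as the share of each isotype in the reads per kilobase of the 7 beta members. Tubb3 made up 14.1%, 15.7% and 14.0% of it in shCtrl and 8.48%, 8.46% and 7.25% in shPla2g4e. Tubb5 went from 14.0% ± 0.308 to 11.4% ± 0.452. Neither gene's groups overlapped, and both shares were lower in the knockdown. The shares of Tubb2b (19.1% ± 0.467 to 22.4% ± 0.924), Tubb4b (5.66% ± 0.308 to 7.36% ± 1.07) and Tubb6 (0.454% ± 0.0252 to 0.765% ± 0.209) were higher in every knockdown library. Tubb2a (33.5% to 35.2%) and Tubb4a (12.7% to 14.7%) overlapped, though Tubb4a was higher in each same-numbered pair of libraries.

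In the alpha pool, Tuba1a held 90.4% ± 0.398 in shCtrl and 89.3% ± 1.15 in shPla2g4e, with overlap but lower in each same-numbered pair, and Tuba1b 3.91% and 3.72%, also with overlap. The Tuba4a share was 5.52%, 5.70% and 5.80% in shCtrl and 6.67%, 6.15% and 8.01% in shPla2g4e, higher in all 3. Its size depends on the length used, with means of 3.49% and 4.304% per kilobase of stretches that occur once and 11.0% and 13.3% of raw reads. The exact two-sided permutation p was 0.1 for each of the 6 shares without overlap, the smallest possible, and 0.167 after Benjamini-Hochberg adjustment over the 10 shares, so that none could pass at this number of libraries. Paired by replicate number, the exact sign-flip p was 0.25, again the smallest possible, for these 6 and for Tubb4a and Tuba1a. Shares within a pool are tied, since one that is lower makes the others higher.

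**Figure D3:**
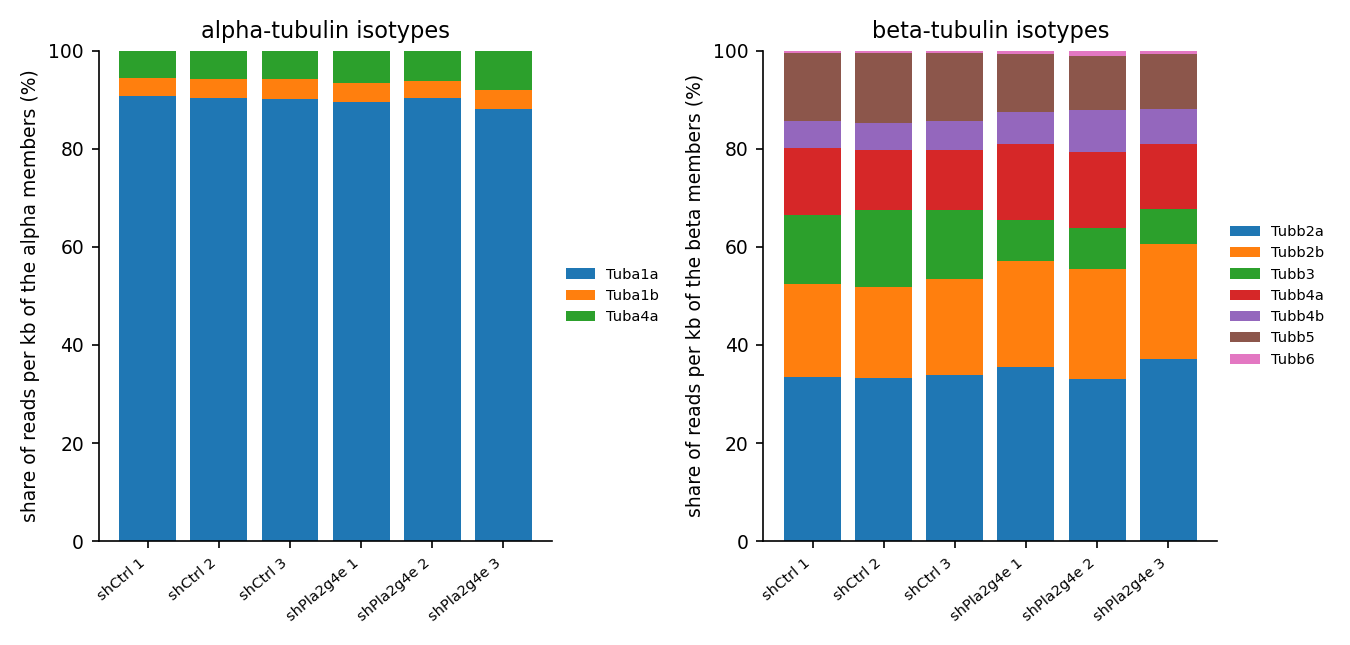
Share of each isotype in the reads per kilobase of the 3 alpha members (left) and the 7 beta members (right), 1 stacked bar per library, in percent. The Tubb3 band (green, right) is 14.0% to 15.7% in shCtrl and 7.25% to 8.48% in shPla2g4e, and Tuba1a (blue, left) fills about the same part of every bar.

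How much of each transcript is its own bears on these counts, because the record of the counting run names no option for reads that map to several places, and the counter leaves such reads out by default. The read length was not given in the sources used here, and stretches of 50 bases stand in for reads. Of these stretches, 75.5% in Tuba1a and 83.1% in Tuba1b also occurred in another annotated gene, most often Tuba1c. The value was 49.6% for Tubb2a and 39.3% for Tubb2b, mostly shared with each other, and 55.5% for Tubb4b, mostly shared with the pseudogene Tubb4b-ps1. For Tuba4a it was 48.8%, nearly all of it shared with Stk16, a kinase gene on the opposite strand. In Tubb3 and Tubb6 no stretch was shared, and in Tubb4a and Tubb5 0.184% and 0.115% were.

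With stretches of 100 bases the shared part was smaller, 27.7% in Tubb2b and 30.6% in Tubb4b, and it was 65.8% in Tuba1a and 73.0% in Tuba1b. Levels of the 6 members with over 30% shared 50-base stretches, and the splits between Tuba1a and Tuba1b and between Tubb2a and Tubb2b, are therefore uncertain. For Tuba4a this comes from the overlap with Stk16. The 4 members with under 1% shared held both the largest and the smallest estimate, from −1.68 for Tubb3 to −0.07 for Tubb6. Their summed CPM went from 1150.0 ± 99.1 to 554.9 ± 41.9, 48.3% of the control (exact permutation p = 0.1). Divided by the length of stretches that occur once, Tubb3 made up 9.03% of the beta pool in shCtrl and 4.78% in shPla2g4e, Tubb4b 10.3% and 12.9%, Tubb5 10.8% and 8.46%, and Tubb4a 7.83% and 8.71%. On that basis Tuba1b made up 6.08% and 5.82% of the alpha pool. These lengths come from 1 transcript per gene and not from all exons that were counted.

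Overlapping genes touched 4 members. Tuba1a and Tuba1b share 26.2% and 22.7% of their exon bases with the predicted gene Gm49450 on the same strand, which had 0 reads in every library. Reads that fall on both genes are left out by default. Tuba4a overlaps Stk16 over 37.3% of its exon bases on the other strand, Tubb4b overlaps Fam166a over 5.80%, and Tuba1b overlaps the predicted gene Gm41396 over 4.64%. No strand option is recorded. If reads were counted without regard to strand, those in these overlaps fall on both genes and would be left out too. Stk16 held 820 to 1151 reads per library, Fam166a 0 to 21 and Gm41396 3 to 9.

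**Figure D4:**
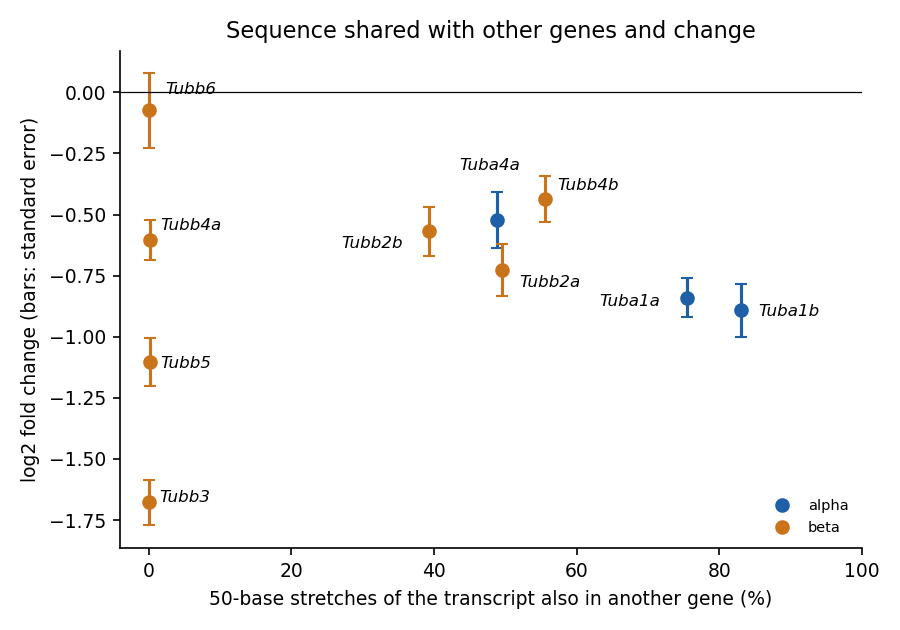
Percent of 50-base stretches of each transcript that also occur in another annotated gene (x axis) against the log2 fold change with its standard error (y axis), alpha members in blue and beta members in orange. Tubb3, Tubb5, Tubb4a and Tubb6 sit near 0% on the x axis and span −1.68 to −0.07. Nearly all of the Tuba4a value is its overlap with Stk16 on the other strand.

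The shRNA itself was set against the members' sequences. The sh2 target in Pla2g4e is given 5′ to 3′, with the 7 bases that pair with guide bases 2 to 8 in capitals.
sh2 target: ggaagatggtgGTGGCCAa
The site GTGGCCA, searched on the sense strand, was in the 3′ UTR of none of the 10 members, against 12% of 15466 genes with a 3′ UTR. It was once in the coding sequence of Tuba1a, Tuba1b and Tubb3, 3 of 10 members, against 25.6% of 15800 coding genes. The longest run any member shared with the target of 19 bases was 6 to 8 bases. A match is a description of letters and not a functional site.

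Genes that fold, modify, nucleate and regulate tubulin were counted in the same fit. Over 5 lists with 79 tested genes, 4 passed as lower and 0 as higher in edgeR, and limma after voom gave 4 and 0. The 4 lower are a share near the 4% of all genes that passed as lower, so the count is no result about these lists. At an unadjusted p below 0.05, 14 were lower and 4 higher, where 12.9% of all genes were lower and 12.8% higher. With the replicate number as a block, 11 passed as lower and 1 as higher, against 9.02% and 6.5% of all genes. Without shCtrl replicate 1 or shCtrl replicate 2 the lower count was 2. The 9 members passed with the block as well.

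Of the 6 other tubulins tested, Tubg2, a gamma-tubulin of the microtubule nucleating complex, fell from 45.1 ± 2.96 to 24.4 ± 1.84 CPM (log2 fold change −0.89, edgeR adjusted p = 1.99e-05). The second gamma gene Tubg1 had a log2 fold change of −0.41 (edgeR adjusted p = 0.015), and passed with the block (5.34e-04). Tuba8, a minor alpha isotype, had 0.46 (edgeR adjusted p = 0.178). Tubal3 and Tubb1, the platelet beta isotype, had no reads in any library. The median log2 fold change of these 6 was 0.22.

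Among 23 folding cofactors and chaperones, which bring nascent tubulin into its folded and dimeric state, the median log2 fold change was 0.02. Tbcd, a cofactor that assembles and takes apart the dimer, was lower at 57.1 ± 1.40 against 73.4 ± 5.50 CPM (log2 fold change −0.36, edgeR adjusted p = 0.00855), and this call held without shCtrl replicate 3 and was lost without any 1 of the other 5 libraries, with an edgeR adjusted p of up to 0.0749. Tbcb stood at −0.29 (edgeR adjusted p = 0.036, with the block 0.00547) and Pfdn6 at 0.24 (edgeR adjusted p = 0.123). The summed level of the list was 2028 to 2082 CPM in shCtrl and 2030 to 2090 CPM in shPla2g4e, so the ranges overlapped.

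In the list of tubulin mRNA autoregulation, 1 of 6 genes passed. Cnot1, the scaffold of the CCR4-NOT deadenylase, went from 180.4 ± 6.86 to 134.5 ± 10.6 CPM (log2 fold change −0.42, edgeR adjusted p = 0.00253), and the call was lost without shCtrl replicate 1 (0.0121) or 2 (0.0168). Ttc5, the recognition factor, stood at 48.2 ± 2.87 against 39.1 ± 1.29 CPM (log2 fold change −0.30, edgeR adjusted p = 0.0287, with the block 0.00386). Cnot10 had −0.18 (edgeR adjusted p = 0.184).

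Of 27 tested enzymes that add or remove tubulin modifications, Vash1, which cuts the final tyrosine from alpha-tubulin, fell from 78.8 ± 7.80 to 41.7 ± 0.521 CPM (log2 fold change −0.92, edgeR adjusted p = 6.92e-06). The acetyltransferase Atat1 had −0.25 (edgeR adjusted p = 0.0454, with the block 0.00336). 4931428F04Rik, an older symbol of the detyrosinating enzyme Matcap1, had −0.28 (edgeR adjusted p = 0.0598, with the block 0.00834). In the gamma-tubulin ring complex and its augmin partners, none of 17 genes passed in edgeR, 4 were lower and 2 higher at an unadjusted p below 0.05 (12.9% and 12.8% of all genes), and limma after voom gave 0. Haus3, an augmin subunit, stood at 0.67 (edgeR adjusted p = 0.0136) and passed as higher with the block (6.22e-04). Haus8 and Cdk5rap2 stood at −0.51 and −0.35 (edgeR adjusted p = 0.0306 and 0.0987) and passed as lower with the block (0.00213 and 8.66e-04).

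**Figure D5:**
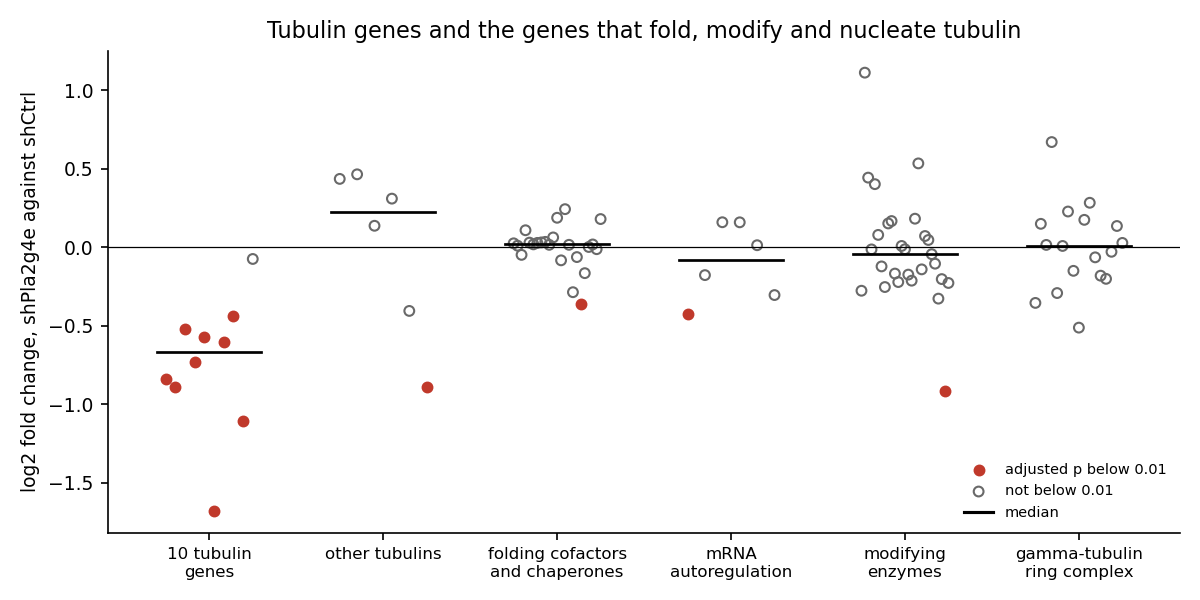
Log2 fold change, shPla2g4e against shCtrl, of each tested gene in the tubulin members and 5 lists around them, filled where the adjusted p was below 0.01, with bars at the medians. The median of the 10 members is −0.67 and those of the lists lie between −0.08 and 0.22.

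Markers of the cells in the cultures were set beside these values. Across all genes tested, 4% passed as lower and 2.48% as higher in edgeR, and 9.02% and 6.5% with the block. With library size alone 2.78% were lower, and limma after voom called 4.23% lower and 2.3% higher. At an unadjusted p below 0.05, 12.9% were lower and 12.8% higher. Of 15 pan-neuronal markers, 2 were lower (Map2 and Rbfox3) and 2 higher (Nefm and Nefl), and their summed level was 7639 to 8433 CPM in shCtrl and 7261 to 7789 CPM in shPla2g4e. With the replicate block, 4 were lower and 3 higher. Rbfox3 passed in 10 of the 15 alternatives. Of 12 astrocyte markers, 4 were lower (Aqp4, Gja1, Slc1a2 and Ndrg2), with sums of 3390 to 4307 CPM and 2359 to 3640 CPM. With the block, 8 were lower, Gfap among them (edgeR adjusted p = 6.26e-12, without the block 0.0267), and S100b was higher. With library size alone 2 were lower, and of the 15 alternatives Slc1a2 passed in 7 and Ndrg2 in 8. Of 11 oligodendrocyte lineage markers tested none passed in edgeR, with 1 lower at an unadjusted p below 0.05 and 0 with limma after voom, and sums of 588 to 664 CPM and 595 to 753 CPM. Olig2 was lower with the block.

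Of 10 microglial markers tested, 7 had a log2 fold change under 0, with a median of −0.68. At an unadjusted p below 0.05, 3 were lower and 2 higher (12.9% and 12.8% of all genes). The marker that passed was Cd68, higher at 28.7 against 18.04 CPM and passing in 9 of the 15 alternatives, while C1qc stood at 0.422 against 1.77 CPM (edgeR adjusted p = 0.0553) and was lower with the block. The microglial sums, of which Cd68 made up the greater part, were 19.8 to 35.0 CPM and 32.4 to 36.6 CPM. Mural, endothelial and fibroblast sums were 51.5 to 90.2 CPM and 56.8 to 108.8 CPM, with Cldn5 at 0 in all libraries. None of 12 passed in edgeR or with limma after voom, and 3 were higher at an unadjusted p below 0.05 (12.8% of all genes). Kdr, Col1a1 and Col1a2 were higher with the block (6.5% of all genes). Proliferation sums were 156 to 192 CPM and 141 to 179 CPM, with 2 of 12 lower (Mcm5 and Top2a), 3 lower with the block and 1 with library size alone. The shares of all genes lower in these fits were 4%, 9.02% and 2.78%. Top2a passed in 8 of the 15 alternatives. The part of these cell types in the tubulin values was not tested.

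Genes whose log2 CPM followed Tubb3 closely over the 6 libraries were looked up among 10957 genes whose log2 CPM averaged 3 or more. They included Gm10736 (Pearson r = 0.9975), Ppm1g (0.9973), Pacs2 (0.9973) and Elovl6 (0.9971). Their log2 fold changes ran from −0.31 for Elovl6 to −1.37 for Gm10736. Among the members, Tuba1a came closest to Tubb3 at 0.9966, Tubb5 reached 0.988 and Tubb6 0.254. The 6 points fall into the 2 groups, so that any gene with a clear group difference scores high.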

How the data were processed

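Poly(A) RNA of 6 libraries (3 shCtrl, 3 shPla2g4e) was prepared with a stranded kit. The authors deposited raw read counts per gene with exon lengths, aligned with STAR 2.7.0d and counted with featureCounts 1.6.0 on GRCm39, per the labels and the file headers. The study's methods give mm10 with GENCODE M18, a different release from the headers. The headers record no strand or multi-mapping option. Each library held 17054717 to 23570180 counted reads. Symbols came from GENCODE vM21 (52081 of 55357 IDs matched). Libraries of a group differed by more than sampling noise (chi-square per gene of 6.03 to 15.4), so none was counted as a copy.

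Genes that reached 6 reads in 1 library or more were tested with edgeR 4.0.16 (TMM, quasi-likelihood, R 4.3.3), with Benjamini-Hochberg adjustment over all 21876 and a threshold of 0.01. Shares and sums used exact permutation tests. Alternatives were other scalings, filters, limma 3.58.1 after voom, DESeq2 1.42.0, a replicate block and leaving out each library. The test scripts were tested on simulated data. Transcript sequences came from GENCODE vM21 with Biopython 1.88, where unannotated copies are not seen. Named genes were the members, Pla2g4e, the 3 smallest p-values and every passing gene of each tubulin list, and the 5 genes most like Tubb3, of which 1 is not reported here. Marker genes that passed are also named, and this was chosen after their values were seen. The members and lists were chosen with earlier results of these data known.

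Replicate numbers 1 to 3 recur in both groups' labels. To check whether they pair the libraries, each library's deviation from its group mean was correlated across 10958 genes. Same-numbered libraries gave 0.391, 0.1885 and 0.460, and differently numbered ones −0.391 to 0.105. The same-numbered values were the higher ones, but deviations from a mean of 3 are tied to each other. The numbers were therefore treated as possible pairs, and pairing was not established. The fits and tests reported are unpaired, and blocked values are given where they change a call.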

Additional observations from a re-analysis of the deposited data

How the results depend on the processing

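Of the 9 members that passed, Tuba1a, Tuba1b, Tubb2a, Tubb3, Tubb4a and Tubb5 passed under all 15 alternatives, Tubb2b under 13, Tubb4b under 9 and Tuba4a under 7. The number of members lower was 7 with upper-quartile scaling and with library size alone (3.24% and 2.78% of all genes lower), 8 with at least 10 reads in every library (4.99%), and 6 to 9 when 1 library was left out (2.07% to 4.31%). Tubb6 turned to 0.0012 with library size alone (edgeR adjusted p = 0.998) and to 0.0597 without shPla2g4e replicate 1 (0.88), in a range of −0.238 to 0.0597 when 1 library was left out. The difference of the beta to alpha ratio ranged from −0.0546 to 0.0593 when 1 library was left out, −0.0194 without shCtrl replicate 3 and −0.0546 without shPla2g4e replicate 3. The replicate number as a block gave 11 lower and 1 higher of the 79 genes around tubulin and changed no call among the members. Library size alone gave 1 higher. Leaving out 1 library gave 2 to 5 lower and 0 higher. Share differences kept their sign but changed in size when 1 library was left out. Without shPla2g4e replicate 2, the Tubb4b difference went from 1.70 to 1.095 points and that of Tubb6 from 0.311 to 0.191. Without shPla2g4e replicate 3, Tuba4a went from 1.27 to 0.738 points and Tuba1a from −1.09 to −0.452. The cause of these shifts was not tested.

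With 3 libraries a group, shares and sums cannot go below a permutation p of 0.10. Tubb6 rests on 199 to 305 reads per library, and 6 members share over 30% of their 50-base stretches with other genes, Tuba4a mostly by overlapping Stk16.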
